A study of Rattus norvegicus with 6 samples.

Results

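Interferon-stimulated genes are the antiviral genes that cells switch on when interferon binds its receptor. A set of 40 such genes was followed in adult rat liver, chosen as a list of names covering the antiviral GTPases, the RNA-binding and RNA-sensing proteins, the transcription factors of the response, the PARP, TRIM and ubiquitin-like genes, and other effectors. The list was chosen with earlier results of these data known. Its counts, set below beside the shares of all genes, therefore describe the list and are no independent test of it. All 40 were matched by symbol to a probe set with that symbol alone, out of 22093 genes measured. The animals were Sprague Dawley rats in 2 groups of 3. STZ-O rats were offspring of males made hyperglycaemic by an intraperitoneal dose of streptozotocin, a compound toxic to insulin-producing beta cells. CB-O rats were offspring of males with normal blood sugar that had received citrate buffer in the same way. In both groups the mothers were normal females, the rats ate chow, and they were killed fed. The labels give the offspring's age only as adult and do not separate the sexes, and 1 rat was used per litter. Each liver was read on 1 Affymetrix rat transcriptome array, in which biotin-labelled cDNA hybridises to probes summarised as 1 log2 value per probe set, and the study's question was what a father's hyperglycaemia does to his progeny's metabolism.

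As background, type I interferons bind the receptor pair encoded by Ifnar1 and Ifnar2, whose kinases Jak1 and Tyk2 activate STAT proteins. A complex that holds STAT2 and IRF9 then binds the interferon-stimulated response element in the promoters of the genes described here, while interferon gamma acts mainly through the gamma-activated site. In liver both hepatocytes and resident macrophages answer interferon, and many of these genes keep a low tonic level without infection.

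Most of the 40 genes stood slightly higher in offspring of hyperglycaemic fathers. The mean was higher in STZ-O for 37 and lower for 3 (Ifit2, Stat2 and Isg20), where 48.1% of all genes had the higher mean in STZ-O. The median difference, STZ-O minus CB-O, was 0.165 on the log2 scale, beside -0.004 over all genes tested. In limma, a linear model with variances moderated across all genes, 16 of the 40 had an unadjusted p under 0.05, against 5.68% of all genes. All 16 had the higher mean in STZ-O, which 3.2% of all genes did at that p, and 0 the lower mean, which 2.48% did. After Benjamini-Hochberg adjustment over all genes 0 of the 40 passed 0.05 in limma, as did 0 of the 22093 genes (0.0%), so none of the differences below is a call. The smallest limma adjusted p among the 40 was 0.225, for Bst2.

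The differences were small, and most of the probe sets were dim. A fold of at least 1.2 towards STZ-O was found for 13 of the 40 (1.6% of all genes), a fold of at least 1.5 for 5 (0.181% of all genes), and a fold of at least 1.2 the other way for 0. Of the 40, 7 averaged above the 95th percentile of the negative control probes (8.26), and 3, Ifit3, Oas2 and Rsad2, averaged below their median (5.51). For these 3 the values may hold no specific signal. Of all 22093 genes, 2911 averaged above that percentile and 5327 below that median, so dim signal was not particular to the 40. Ifit1, 1 of the 5 genes past 1.5-fold, averaged below that median in CB-O. The 3 STZ-O arrays all lay above the 3 CB-O arrays for 16 of the 40 genes, against 5.2% of all genes, and all below for 0, against 4.93%.

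**Figure D1:**
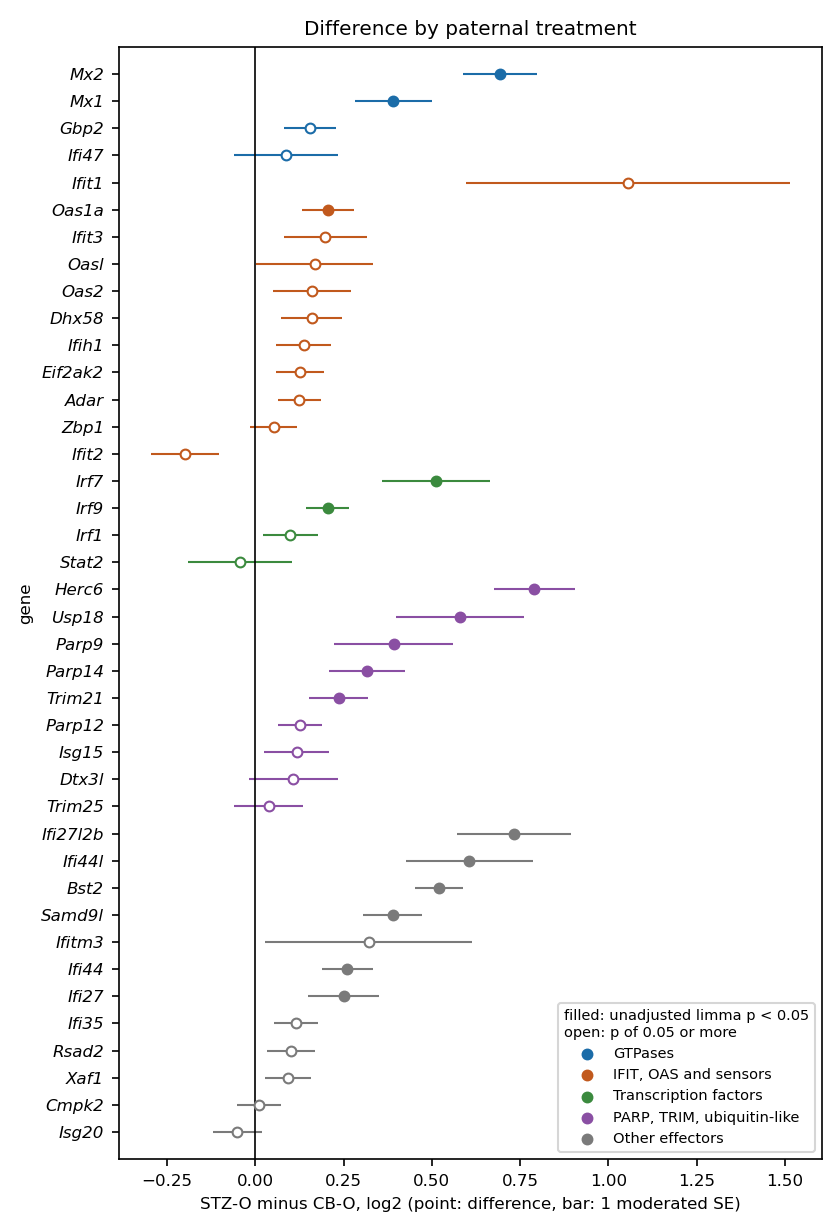
Difference between STZ-O and CB-O for each of the 40 genes, in log2 units, with bars of 1 moderated SE and colours for the 5 classes. Filled points have an unadjusted limma p under 0.05; all 16 lie to the right of 0, and Ifit1, at 1.06, has the widest bar.

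**Figure D2:**
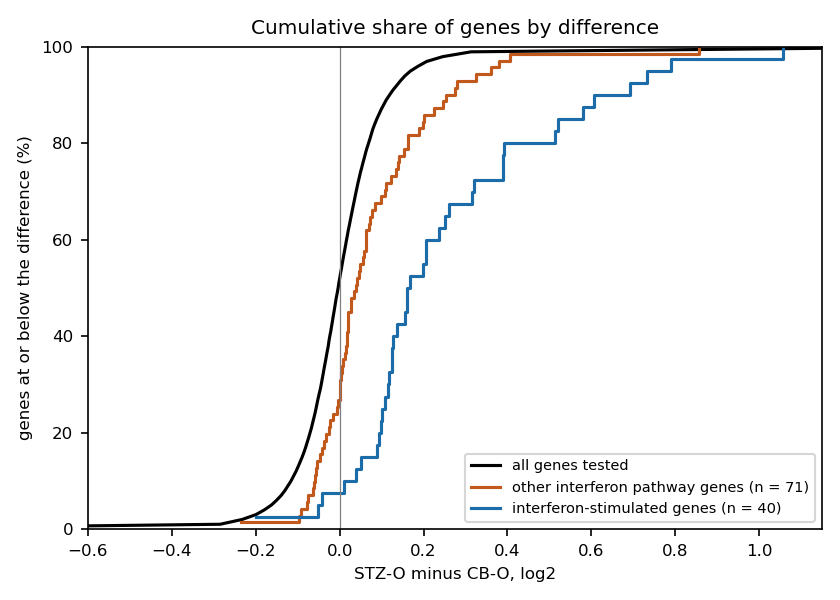
Cumulative share of genes (percent) at or below a given STZ-O minus CB-O difference (log2), for all genes tested, for 71 other genes of the interferon pathway and for the 40 interferon-stimulated genes. Over most of the range the curve of the 40 lies to the right of the others, with a median of 0.165 beside 0.038 for the other pathway genes.

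Promoter windows of the 40 genes were searched for the motifs of interferon signalling. RefSeq promoter windows of the rat assembly GRCr8, running from 250 bases before to 50 bases after an annotated start site, were matched by symbol for 29 of the 40 genes. The core of the interferon-stimulated response element, searched as GAAA, any 2 bases and GAAA again, on both strands with overlapping matches counted, was present in 18 of the 29 windows (62.1%), against 3.92% of 33469 rat promoter windows of the same length. The gamma-activated site, searched as TTCNNNGAA, which reads the same on both strands, was present in 8 of the 29 (27.6%), against 8.87% of all windows. A match is a description of the letters, not evidence of binding, and other start sites of the same genes were not searched.

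The stretches of 40 bases around the response element core nearest the start site are printed here for the 8 genes that had both a match and an unadjusted limma p under 0.05 to show the letters behind that count. Each is given 5′ to 3′ on the gene's strand, with matches to the core in capitals; a core in the other orientation reads TTTC, 2 bases, TTTC.
Bst2, chr16:18255068-18255107, minus strand: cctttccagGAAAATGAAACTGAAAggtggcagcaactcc
Oas1a, chr12:41330416-41330455, plus strand: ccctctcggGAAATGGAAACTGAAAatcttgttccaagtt
Trim21, chr1:166399359-166399398, minus strand: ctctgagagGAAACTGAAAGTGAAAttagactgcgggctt
Parp14, chr11:78408043-78408082, plus strand: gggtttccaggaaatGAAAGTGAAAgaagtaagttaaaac
Ifi44l, chr2:243328649-243328688, plus strand: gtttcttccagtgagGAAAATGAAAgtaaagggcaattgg
Ifi27, chr6:128355213-128355252, plus strand: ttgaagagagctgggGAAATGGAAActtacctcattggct
Ifi44, chr2:243303842-243303881, minus strand: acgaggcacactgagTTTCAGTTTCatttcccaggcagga
Irf7, chr1:205800068-205800107, minus strand: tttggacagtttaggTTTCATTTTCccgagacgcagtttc

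In Bst2, Oas1a and Trim21 the printed stretch holds a pair of overlapping cores, so that GAAA recurs at a regular spacing. Counted from the start site, the core nearest to it began at position -125 in Bst2, -35 in Oas1a and -12 in Trim21. Mx1, Irf9, Herc6 and Parp9 also had an unadjusted limma p under 0.05 and had no match in their windows; Irf9 held the gamma-activated site instead. Over all genes 48.1% had the higher mean in STZ-O, and 3.2% had it with an unadjusted limma p under 0.05. The 18 genes with the response element core had a median difference of 0.202, with 17 higher in STZ-O and 8 of these at that p. The 11 genes with a window and no core had a median of 0.116, with 10 higher and 4 at an unadjusted p under 0.05. The 11 genes with no window matched had a median of 0.161, with 10 higher, 4 at an unadjusted p under 0.05 and differences from -0.20 to 1.06. The highest and lowest differences were 0.61 and -0.05 among genes with the core, and 0.79 and -0.04 among those with a window and no core, so the ranges overlapped.

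The whole Bst2 window is printed because this gene had the smallest p of the 40; the overlapping cores are in capitals and the window spans chr16:18254918-18255217 on the minus strand of GRCr8.
Bst2: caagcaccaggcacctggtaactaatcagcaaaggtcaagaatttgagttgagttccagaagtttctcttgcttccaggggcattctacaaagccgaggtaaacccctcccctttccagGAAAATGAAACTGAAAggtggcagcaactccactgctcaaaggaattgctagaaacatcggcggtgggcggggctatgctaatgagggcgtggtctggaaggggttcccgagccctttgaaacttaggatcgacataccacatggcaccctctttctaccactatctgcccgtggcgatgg

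**Figure D3:**
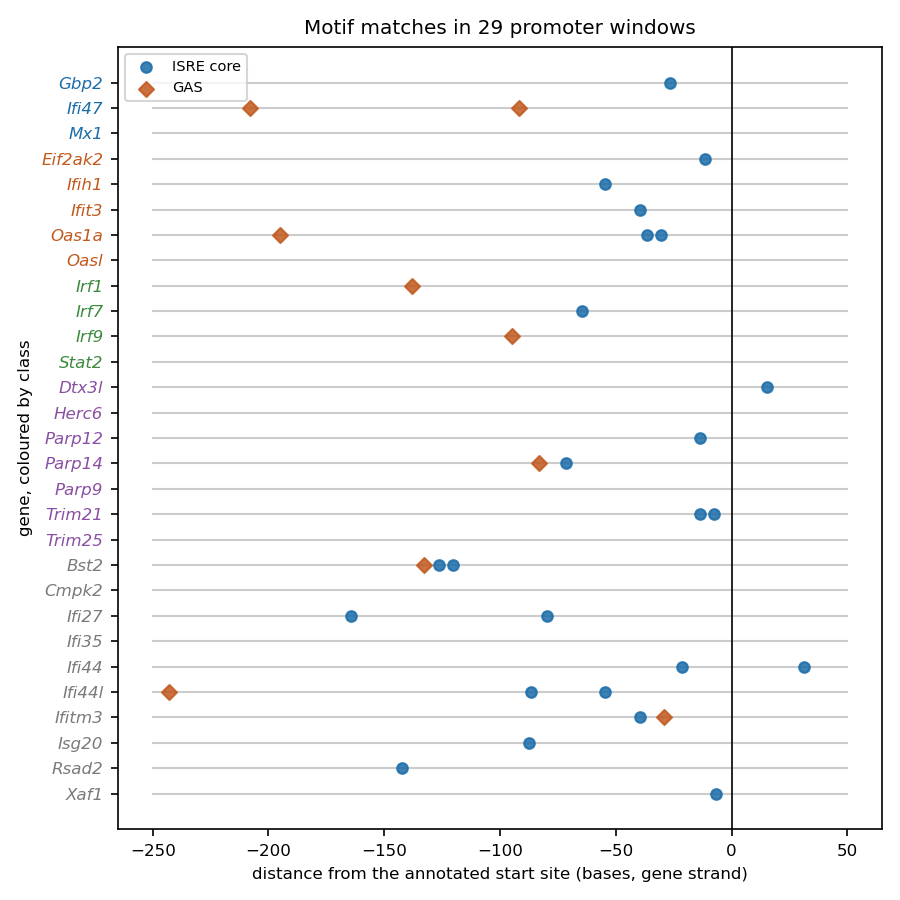
Positions of the response element core (ISRE core, circles) and the gamma-activated site (GAS, diamonds) in the 29 promoter windows, in bases from the annotated start site on the gene's strand, with gene names coloured by class. Most circles lie within 100 bases before the start site; those of Bst2 and Rsad2 and 1 of the 2 in Ifi27 lie farther out.

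The response begins with its transcription factors, and in this class Irf7 and Irf9 stood higher in STZ-O while Irf1 and Stat2 did not part by group. Irf7, which drives the interferon genes themselves, read 7.94, 7.64 and 7.41 on STZ-O replicates 1, 2 and 3 and 7.41, 6.99 and 7.05 on the CB-O replicates. The lowest STZ-O array and the highest CB-O array were level to the printed decimals. The difference was 0.51 ± 0.15 (SE), which is 1.43-fold (limma adjusted p = 0.709). Irf9, the DNA-contacting subunit of the STAT complex, read 7.40, 7.29 and 7.33 in STZ-O and 7.20, 7.07 and 7.14 in CB-O. Its groups did not overlap, and the difference of 0.21 ± 0.06 had a limma adjusted p of 0.709 too. Stat2, the partner of IRF9, read 9.48, 9.05 and 9.04 in STZ-O and 9.43, 9.26 and 9.01 in CB-O. The groups overlapped throughout, the difference was -0.04 ± 0.15, and it was at 0.06 without CB-O replicate 1. Irf1, an early factor shared with the interferon gamma response, was 0.10 ± 0.08 higher, with overlapping groups. The class median was 0.152, from 3 genes higher, where 48.1% of all genes were, and 1 lower.

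Among the antiviral GTPases, which assemble on viral nucleocapsids or on membranes around pathogens, Mx2 and Mx1 parted the groups and Gbp2 and Ifi47 did not. Mx2 read 8.19, 7.93 and 7.77 in STZ-O and 7.34, 7.27 and 7.21 in CB-O. The lowest STZ-O liver lay well above the highest CB-O liver, with group means of 7.96 ± 0.21 (SD, n = 3) and 7.27 ± 0.06 (SD, n = 3). The difference was 0.69 ± 0.10 (SE), 1.62-fold (limma adjusted p = 0.286). Mx1 read 6.74, 6.72 and 6.40 in STZ-O and 6.37, 6.22 and 6.11 in CB-O, a narrow parting in which STZ-O replicate 3 was close to CB-O replicate 1. Its difference was 0.39 ± 0.11 (limma adjusted p = 0.684). Mx1 and Mx2 are close relatives whose probe sets may share hybridisation, so the values are uncertain as to which of the pair they measure. Gbp2, a guanylate-binding protein gene, was 0.16 ± 0.07 higher with overlapping groups. Ifi47, a member of the immunity-related GTPase family, read 7.01, 6.78 and 6.36 in STZ-O and 6.66, 6.67 and 6.57 in CB-O. Both the highest and the lowest of its 6 values were STZ-O livers, and its difference of 0.09 ± 0.15 was -0.06 without STZ-O replicate 1. The class median was 0.273, with 4 of 4 genes higher, where 48.1% of all genes were.

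The IFIT genes, whose products bind foreign RNA, gave differences of both signs. Ifit1 differed by 1.06 ± 0.46 (SE), but its CB-O mean of 5.45 lay below the negative control median of 5.51, where the values may hold no specific signal, so no fold is given. It read 7.69, 5.76 and 6.08 in STZ-O and 5.38, 5.13 and 5.85 in CB-O. STZ-O replicate 1 stood far above the other 5 livers, the groups overlapped, and the difference was 0.47 without that array (limma adjusted p = 0.881 on all arrays). Ifit2 read 6.73, 6.77 and 6.72 in STZ-O and 7.14, 6.91 and 6.76 in CB-O. It was the lowest of the 40 differences, at -0.20 ± 0.10, with CB-O replicate 1 the highest liver, and was at -0.10 without that array. Ifit3, measured below the negative control median, was 0.20 ± 0.12 higher in STZ-O.

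The oligoadenylate synthetases and RNA sensors, which detect double-stranded or modified RNA, gave small differences, all towards STZ-O. Oas1a, whose product makes the messenger that activates RNase L, read 7.42, 7.16 and 7.28 in STZ-O and 7.09, 7.05 and 7.11 in CB-O. All 3 STZ-O livers were higher than all 3 CB-O livers, by 0.21 ± 0.07 (SE) on average (limma adjusted p = 0.818). Eif2ak2, which encodes the kinase PKR that halts translation, read 8.59, 8.61 and 8.59 in STZ-O and 8.36, 8.49 and 8.57 in CB-O. Its groups were barely apart, with a difference of 0.13 ± 0.07 that was 0.07 without CB-O replicate 1. Adar, which edits double-stranded RNA, was also higher on every STZ-O array, by 0.12 ± 0.06. The sensor genes Ifih1 (MDA5) and Dhx58 (LGP2) were 0.14 ± 0.08 and 0.16 ± 0.09 higher with overlapping groups. Oas2 and Oasl were 0.16 ± 0.11 and 0.17 ± 0.17 higher, and Zbp1, a sensor of Z-form nucleic acid, 0.05 ± 0.07. Oasl was at -0.01 without STZ-O replicate 1. The class of 11, IFIT genes included, had a median of 0.160, with 10 higher, where 48.1% of all genes were. Only 1 had an unadjusted limma p under 0.05, against 5.68% of all genes.

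ISG15 is a small ubiquitin-like protein that is attached to other proteins during the response. Of the genes of this cycle among the 40, Herc6 and Usp18 had an unadjusted limma p under 0.05 and Isg15 did not. Herc6, which encodes the main ISG15 ligase in mouse, read 7.04, 6.79 and 7.04 in STZ-O and 6.30, 5.94 and 6.26 in CB-O. A wide gap separated the groups, with means of 6.96 ± 0.15 (SD, n = 3) and 6.17 ± 0.20 (SD, n = 3). The difference was 0.79 ± 0.11 (SE), or 1.73-fold (limma adjusted p = 0.261). Usp18, whose product removes ISG15 and damps signalling at the interferon receptor, read 7.87, 7.18 and 7.34 in STZ-O and 7.13, 6.78 and 6.73 in CB-O. STZ-O replicate 1 was the highest liver, the groups did not overlap, and the difference of 0.58 ± 0.18 was 0.38 without that array (limma adjusted p = 0.761 on all arrays). Isg15 itself read 6.24, 5.99 and 6.24 in STZ-O and 6.11, 5.90 and 6.11 in CB-O. The groups overlapped and the difference was 0.12 ± 0.09, with a limma adjusted p of 0.965. Uba7, the activating enzyme of the ISG15 pathway and not among the 40, was 0.41 ± 0.09 higher with no overlap (limma adjusted p = 0.532). Whether these genes differ from Isg15 in their response was not tested.

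The PARP genes add ADP-ribose to proteins, and PARP9 works in a complex with the ligase DTX3L. Parp14 read 9.08, 8.79 and 9.21 in STZ-O and 8.77, 8.62 and 8.75 in CB-O. The groups were narrowly apart, and the difference was 0.32 ± 0.11 (SE, limma adjusted p = 0.800). Parp9 read 8.93, 8.38 and 8.57 in STZ-O and 8.14, 8.02 and 8.54 in CB-O. CB-O replicate 3 lay within the STZ-O range, and the difference of 0.39 ± 0.17 was 0.24 without STZ-O replicate 1 (limma adjusted p = 0.877 on all arrays). Its partner Dtx3l read 8.05, 7.67 and 7.71 in STZ-O and 7.54, 7.65 and 7.91 in CB-O. The groups overlapped, the difference was 0.11 ± 0.13, and it was -0.01 without STZ-O replicate 1. For both partners STZ-O replicate 1 was the highest of the 6 livers and CB-O replicate 3 the highest CB-O liver. Parp12 was higher on every STZ-O array, by 0.13 ± 0.06.

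TRIM proteins are ubiquitin ligases of the antiviral response, and 2 of them are among the 40. Trim21, a cytosolic receptor for antibody-coated virus, read 7.38, 7.17 and 7.38 in STZ-O and 6.97, 7.10 and 7.15 in CB-O. The groups were just apart, and the difference was 0.24 ± 0.08 (SE, limma adjusted p = 0.800). Trim25, a ligase of the RNA-sensing pathway, read 9.46, 9.40 and 9.37 in STZ-O and 9.56, 9.40 and 9.17 in CB-O. The STZ-O livers lay inside the CB-O range, and the difference of 0.04 ± 0.10 was -0.07 without CB-O replicate 3. The 9 PARP, TRIM and ubiquitin-like genes had a median of 0.236, with 9 higher, where 48.1% of all genes were. Of the 9, 5 had an unadjusted limma p under 0.05 and a higher mean in STZ-O, against 3.2% of all genes.

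Among the other effectors Bst2 gave the tightest parting of all 40 genes. Bst2 encodes tetherin, which holds budding virus at the cell surface, and read 10.25, 10.13 and 10.20 in STZ-O and 9.69, 9.75 and 9.58 in CB-O. Each group spanned little beside the gap between them, with means of 10.19 ± 0.06 (SD, n = 3) and 9.67 ± 0.08 (SD, n = 3). The difference was 0.52 ± 0.07 (SE), which is 1.43-fold (limma unadjusted p = 6.12e-05, adjusted p = 0.225), and lay between 0.47 and 0.56 with any 1 array left out. It ranked number 5 of all genes by moderated t towards STZ-O, and Herc6 and Mx2 ranked 10 and 11. Samd9l, a cytosolic restriction factor, read 6.65, 6.65 and 6.50 in STZ-O and 6.37, 6.14 and 6.12 in CB-O. Its groups were apart, with a difference of 0.39 ± 0.08 (limma adjusted p = 0.529).

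The Ifi27 and Ifi44 families include several of the larger differences. Ifi27l2b, of the Ifi27 family of small hydrophobic membrane proteins, read 8.69, 8.15 and 8.55 in STZ-O and 7.98, 7.50 and 7.71 in CB-O. The groups did not overlap, and the difference was 0.73 ± 0.16 (SE), 1.66-fold (limma adjusted p = 0.532). Its relative Ifi27 read 10.91, 11.04 and 10.74 in STZ-O and 10.53, 10.80 and 10.62 in CB-O. CB-O replicate 2 lay above STZ-O replicate 3, and the difference was 0.25 ± 0.10 (limma adjusted p = 0.843). Ifi44l read 6.52, 6.16 and 6.72 in STZ-O and 5.83, 5.58 and 6.18 in CB-O. The groups overlapped, with CB-O replicate 3 just above STZ-O replicate 2. The difference was 0.61 ± 0.18, 1.52-fold (limma adjusted p = 0.709). Ifi44, which lies beside Ifi44l on chromosome 2, read 7.04, 6.92 and 7.14 in STZ-O and 6.84, 6.76 and 6.73 in CB-O, with no overlap and a difference of 0.26 ± 0.07 (limma adjusted p = 0.680).

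The remaining effectors were closer to 0 or varied more between livers. Ifitm3, which blocks viral fusion in endosomes, read 8.79, 7.69 and 8.08 in STZ-O and 8.30, 7.83 and 7.46 in CB-O. The livers of both groups were interleaved, and the difference of 0.32 ± 0.29 (SE) was 0.02 without STZ-O replicate 1. Isg20, an RNA exonuclease gene, read 7.16, 7.16 and 7.19 in STZ-O and 7.10, 7.23 and 7.33 in CB-O. The STZ-O livers lay within the CB-O range, with a difference of -0.05 ± 0.07. Ifi35 was 0.12 ± 0.06 higher, Xaf1, an apoptosis-linked gene, 0.09 ± 0.07 and Rsad2 (viperin) 0.10 ± 0.07. Cmpk2, a mitochondrial nucleotide kinase gene next to Rsad2, differed by 0.01 ± 0.06. The class of 12 had a median of 0.255, with 11 higher, where 48.1% of all genes were. Of the 12, 6 had an unadjusted limma p under 0.05 and a higher mean in STZ-O, against 3.2% of all genes. The medians of the 5 classes thus ran from 0.152 to 0.273, a narrower span than that of the differences within any class, and classes were not tested against each other.

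**Figure D4:**
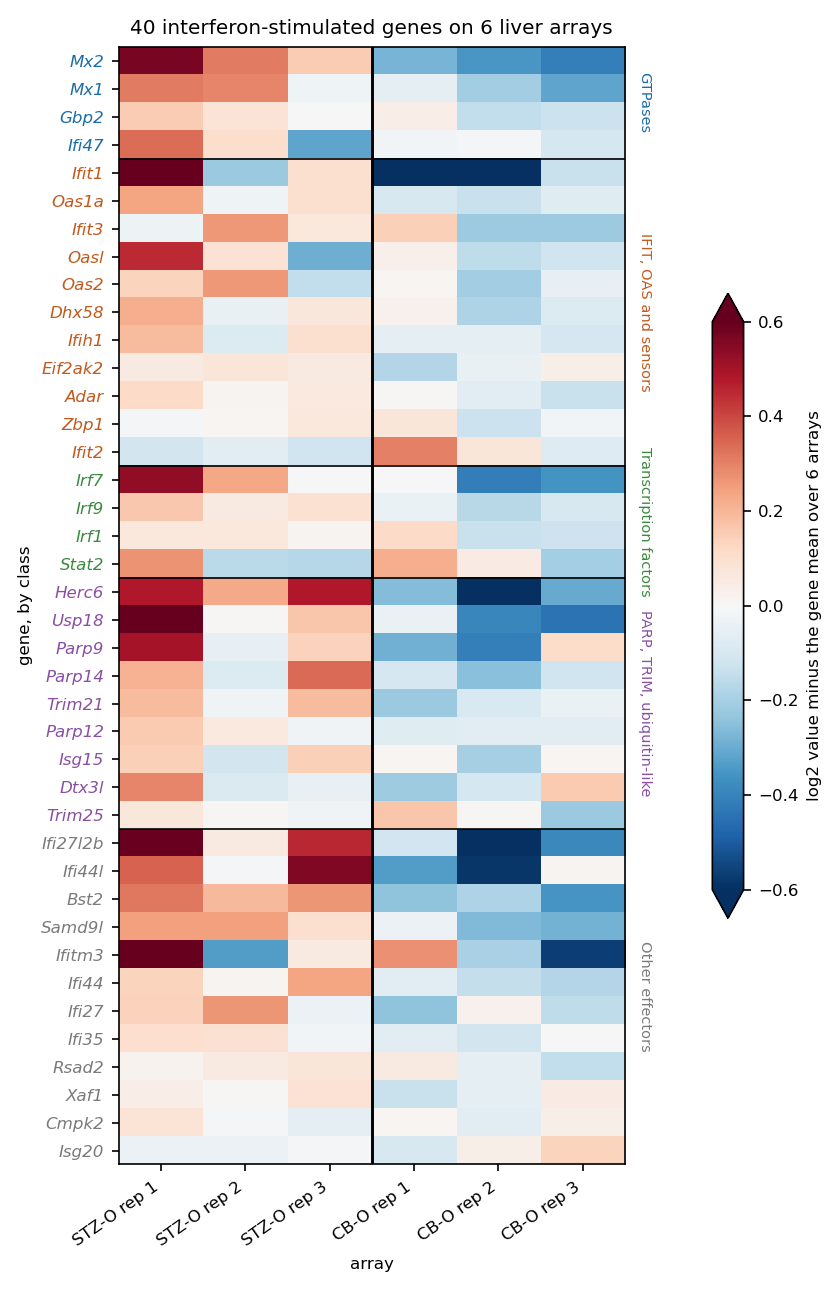
Log2 value of each of the 40 genes on each array, minus the gene's mean over the 6 arrays, grouped by class; the colour scale ends at 0.6 either way. Red is most frequent in the STZ-O replicate 1 column and blue in the CB-O replicate 2 column.

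The livers within a group were not alike, and STZ-O replicate 1 was the highest of the 6 for 25 of the 40 genes (62.5%), where it was the highest for 15.4% of all genes. CB-O replicate 2 was the lowest for 18 (45.0%), against 17.7% of all genes, and CB-O replicate 3 for 12 (30.0%), against 14.9%. Averaged over the 40 genes, STZ-O replicates 1, 2 and 3 deviated from the genes' means by 0.272, 0.045 and 0.072, and the CB-O replicates by -0.059, -0.192 and -0.137. STZ-O replicate 1 thus stood apart, and the other 2 STZ-O livers were closer to CB-O replicate 1 than to it. Without STZ-O replicate 1 the median difference was 0.125, with 33 genes higher and 11 at an unadjusted limma p under 0.05, against 2.72% of all genes in that fit. With any other array left out, between 13 and 19 genes had an unadjusted limma p under 0.05 and a higher mean in STZ-O. For 23 of the 40 genes some left-out array moved the difference by over 1.5 times or turned its sign; for 14 of them STZ-O replicate 1 did so. Bst2, Herc6, Mx1, Mx2, Samd9l, Ifi27l2b, Ifi44, Ifi44l, Irf7, Irf9, Oas1a, Parp14, Trim21, Ifi27, Gbp2, Adar and Ifi35 were not among the 23.

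Other genes of the pathway were set beside the 40. Of 71 measured genes of the pathway outside the 40 (ligands, receptors and kinases, inhibitors, sensing genes, and relatives of the 40), 52 were higher in STZ-O, where 48.1% of all genes were, 19 were lower, and the median was 0.038. In limma 7 had an unadjusted p under 0.05 and a higher mean in STZ-O, against 3.2% of all genes, 0 had one and a lower mean, against 2.48%, and 0 passed the adjustment. The STZ-O arrays all lay above the CB-O arrays for 10 of the 71, against 5.2% of all genes, and all below for 1, against 4.93%. Ifnb1, the interferon beta gene, read 5.83, 5.75 and 5.80 in STZ-O and 5.47, 5.54 and 5.62 in CB-O. The groups were apart, with a difference of 0.25 ± 0.06 (SE, limma adjusted p = 0.632), but the level lay just above the negative control median of 5.51, where a probe set may carry no specific signal. Over the 8 ligand genes the median was 0.000, with 4 higher and 4 lower, and Ifng differed by 0.03 ± 0.09 at a level below that median. Of the receptor and kinase genes 0 of 9 had an unadjusted limma p under 0.05, against 5.68% of all genes. Ifnar2 was higher on all STZ-O arrays by 0.13 ± 0.06, and Ifnar1, Jak1 and Tyk2 differed by 0.05 ± 0.06, 0.04 ± 0.06 and 0.00 ± 0.06.

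Among inhibitors and sensing genes Samhd1 and Cgas stood out. Samhd1, which depletes nucleotides needed by viruses, read 7.52, 7.44 and 7.48 in STZ-O and 7.13, 6.96 and 7.22 in CB-O. The groups did not overlap, and the difference was 0.38 ± 0.08 (SE, limma adjusted p = 0.517). Cgas, the cytosolic DNA sensor gene, was 0.23 ± 0.08 higher with no overlap (limma adjusted p = 0.800). Its CB-O mean of 5.42 lay below the negative control median of 5.51, where the values may hold no specific signal. Mavs, the adaptor of the RNA sensors, differed by -0.05 ± 0.12. The 8 inhibitors and 14 sensing genes had medians of 0.032 and 0.016. Relatives of the 40, which make up 32 of the 71, had a median of 0.066, with 26 higher, where 48.1% of all genes were, and 4 at an unadjusted limma p under 0.05 towards STZ-O, against 3.2%. Their median ran from 0.048 without STZ-O replicate 1 to 0.125 without CB-O replicate 1. The 4 were Apol3l1 at 0.86 ± 0.08, Uba7, Irgm at 0.32 ± 0.10 and Oas1k at 0.15 ± 0.07, with limma adjusted p-values from 0.0789 to 0.868. Apol3l1 was matched through its synonym to the list's entry Apol3 and may be a relative of the gene meant. Its adjusted p was 0.0465 with genes dimmer than the negative control median left out and 0.0372 with robust variances that followed an intensity trend, past the threshold in both, and lay between 0.0806 and 0.433 with 1 array left out. Oas3, another synthetase gene, differed by -0.003 ± 0.069. Rigi was not analysed here.

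Markers of the cells a liver sample can hold were set beside these values. The tissue read as liver, with 6 of 7 hepatocyte markers above the 95th percentile of negative controls, a median difference of -0.117 (from -0.226 without STZ-O replicate 1 to -0.083 without STZ-O replicate 3), and Serpina1 at -0.38 ± 0.11 (SE, limma adjusted p = 0.709). Over 39 leukocyte markers of 5 kinds the median difference was 0.007, with 22 higher and 17 lower, of which 2, Siglech and Prf1, had an unadjusted limma p under 0.05 and a higher mean in STZ-O, at 0.20 ± 0.06 and 0.21 ± 0.08, against 3.2% of all genes. Siglech averaged below the negative control median. The mean deviation of that pool was 0.038, 0.076 and -0.115 for STZ-O replicates 1, 2 and 3 and 0.040, -0.036 and -0.003 for CB-O. The array's log2 scale has no true zero, and 10 of the 39 averaged below the negative control median. Ptprc, which encodes the leukocyte antigen CD45, did part the groups, at 7.40, 7.55 and 7.54 in STZ-O and 7.33, 7.11 and 7.09 in CB-O, a difference of 0.32 ± 0.08 (limma adjusted p = 0.651). Its part in the differences of the 40 genes was not tested, and in bulk tissue more cells of a type and more RNA per cell cannot be told apart.

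Kupffer cell and macrophage markers had a median of 0.021, with 9 of 14 higher, where 48.1% of all genes were. At an unadjusted limma p under 0.05 there were 0, against 5.68% of all genes. STZ-O replicate 3 was low for them, with a level of -0.335 beside 0.143 and 0.194 for STZ-O replicates 1 and 2, and without it their median was 0.161 while that of the 40 genes was 0.209. Endothelial markers had a median of -0.175, with 8 of 9 lower, where 11472 of the 22093 genes were. The median was -0.022 without STZ-O replicate 3, on which their level was -0.386. Of these markers Stab2 alone had an unadjusted limma p under 0.05 and a lower mean, against 2.48% of all genes. It was lower on every STZ-O array, by 0.175 ± 0.074 (SE, limma adjusted p = 0.863), and was at -0.107 without STZ-O replicate 3. Red cell markers had 4 of 4 lower, where again 11472 of the 22093 genes were. Their median of -0.144 ran from -0.245 without STZ-O replicate 3 to -0.089 without CB-O replicate 1. Acute phase genes, a liver response to inflammation, had 5 of 14 higher and 9 lower, a median of -0.018 (from -0.129 without CB-O replicate 2 to 0.015 without STZ-O replicate 3), and Hp (haptoglobin) at -0.15 ± 0.06 (SE, limma adjusted p = 0.843). The mean of 5 Y-linked genes lay between 7.36 and 7.54 on all 6 arrays, and their median difference was 0.029. Ddx3y (9.22 to 9.67) and Eif2s3y (8.38 to 8.67) lay above the 95th percentile of negative controls (8.26) on all 6 arrays, so no liver lacked their signal. Kdm5d and Uty averaged between the negative control median and that percentile, and Usp9y below the median. The part of these cell types and states in the differences of the 40 genes was not tested.

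**Figure D5:**
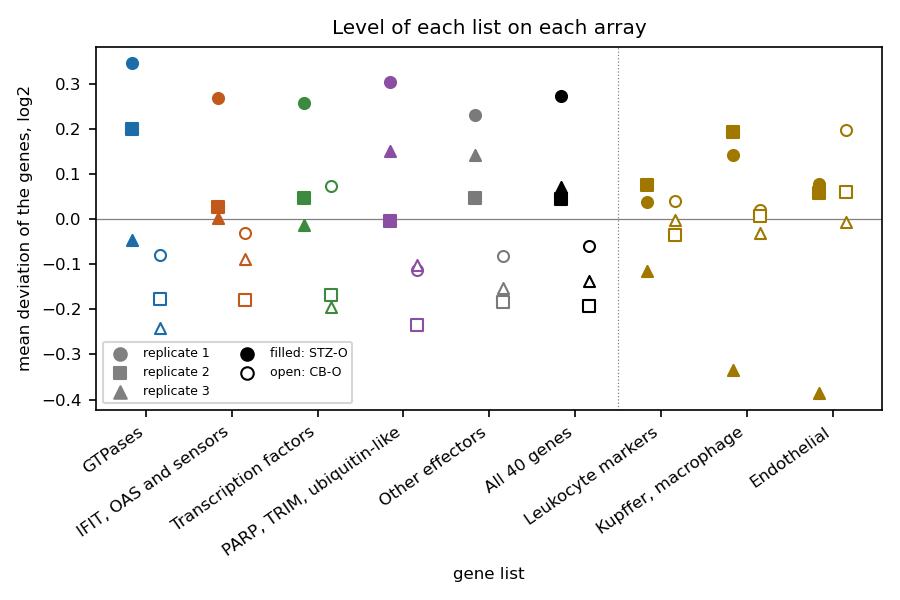
Mean deviation (log2) of the genes of each class, of all 40 genes and of 3 marker lists on each of the 6 arrays, with filled symbols for STZ-O, open symbols for CB-O and a shape per replicate. For all 40 genes the STZ-O arrays lie between 0.045 and 0.272 and the CB-O arrays between -0.192 and -0.059; the marker lists show STZ-O replicate 3 as the lowest array.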

How the data were processed

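Liver RNA of 6 rats was read on 1 array each. The authors deposited RMA values on the log2 scale (robust multi-array average, in Affymetrix Expression Console 1.4.1, per the submitters' processing notes), a method that brings arrays to a common distribution and compresses differences of dim probe sets. The annotation and build they used are not given in these sources. Control probe sets (1738 of 70580) were dropped, and 23446 probe sets with 1 symbol in the platform annotation gave 22093 genes, with the brightest probe set (mean over 6 arrays) standing for a gene; 505 probe sets had several symbols and 44891 none here. Each of the 40 genes had 1 probe set. Any 2 arrays correlated across genes at 0.991 to 0.995. STZ-O minus CB-O was tested with limma 3.58.1 in R 4.3.3 (two-sided, no covariate), adjusted over all genes at 0.05, after the procedure was tested on simulated data; ± values beside differences are moderated SEs, and 3 arrays per group limit the precision.

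The genes, classes and lists were chosen with earlier results of these data known, so no list was given a p-value. Any of the 40 could be named, with values per array for those at an unadjusted p under 0.05 and, in each class, for the brightest gene and the gene with the lowest difference; those of Isg15, Dtx3l, Ifit1 and Ifitm3 were added after they were seen. Of the other lists, genes at an unadjusted p under 0.05 and a fixed set of pathway genes could be named. The 17 alternatives were 6 fits with 1 array left out, the replicate block, other variance models, weights, filters, normalizations and adjustments, and the Y-linked level as a covariate. Same-numbered arrays of the groups correlated in their deviations from group means at 0.146, -0.175 and 0.100 and were not treated as pairs.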

Additional observations from a re-analysis of the deposited data

How the results depend on the processing

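Across 17 alternative fits, 0 of the 40 genes passed the adjusted threshold in limma. With 1 array left out, 33 to 38 genes were higher, and the median difference ran from 0.125 to 0.209. In those fits 11 to 19 had an unadjusted p under 0.05 and a higher mean in STZ-O, against 2.72% to 3.45% of all genes. At that p 0 to 1 had a lower mean (1 without CB-O replicate 3). Of all genes, 0 to 1 passed the adjusted threshold (1 without STZ-O replicate 2). The class of other effectors had medians from 0.180 (without STZ-O replicate 1) to 0.279 (without CB-O replicate 2). Leaving out genes dimmer than the 95th percentile of negative controls left 7 of the 40, of which 6 were higher. Of the 7, 3 had an unadjusted p under 0.05 and a higher mean in STZ-O, against about 4% of all genes in that fit. The median was then -0.043 for transcription factors, represented by Stat2 alone, and 0.385 for other effectors. Without moderation of the variance 8 of the 40 had an unadjusted p under 0.05 and a higher mean in STZ-O, against about 3% of all genes. Among all genes, 2 passed the adjusted threshold with those below the negative control median left out and 2 where the variances were robust and followed an intensity trend. With the replicate block 18 of the 40 had an unadjusted p under 0.05 and a higher mean in STZ-O, against 3.2% of all genes. The median stayed at 0.165, and 0 of the 40 passed. The block changed no call. Single genes that turned sign with 1 array left out ranged from -0.058 to 0.266 (Ifi47), -0.014 to 0.354 (Oasl), -0.190 to 0.056 (Stat2), -0.011 to 0.211 (Dtx3l), -0.065 to 0.129 (Trim25), -0.109 to 0.004 (Isg20) and -0.027 to 0.043 (Cmpk2). The cause of these shifts was not tested, beyond fewer genes or arrays where a filter or a left-out array made them. Dim signal limits most of the 40 genes, and 3 arrays per group limit every difference.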
